A study of Saccharomyces cerevisiae with 12 samples.

Results

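The genes described here are 8 neighbours or near neighbours at the left end of chromosome XIV of the budding yeast Saccharomyces cerevisiae, namely AAD14 (YNL331C), RPD3 (YNL330C), EGT2 (YNL327W), PFA3 (YNL326C), FIG4 (YNL325C), LEM3 (YNL323W), KRE1 (YNL322C) and VNX1 (YNL321W). They were picked by name, because earlier results of these same arrays had them higher in 1 of the 2 strains, and they are 8 of the 5449 genes measured. The gene table lists 16 genes from the chromosome end to VNX1, of which 10 have a probe set named here. The 2 measured genes outside the set are PEX6 and MDJ2. The 6 outermost, YRF1-6, COS1, DDI2, SNO2, SNZ2 and THI12, were not analysed here.

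RNA came from a null strain, KOY.VW101P, in which all known hexose transporter genes were deleted, and from the isogenic reference strain KOY.PK2-1C83P, which keeps them. Both are of the CEN.PK laboratory background and grew in chemostats at a dilution rate of 0.1 per h with ethanol as the carbon source. In such whole cultures, fewer cells of a kind and less RNA per cell cannot be told apart. Cells were taken 20 min after a pulse of glucose and at steady state before it (0 min). The 4 groups were the null strain at 20 min, the null strain at 0 min, the reference strain at 20 min and the reference strain at 0 min, with 3 arrays of replicate cultures each. Each genotype was represented by a single strain, so the deletions and any other difference between these 2 strains cannot be told apart.

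A yeast gene near a chromosome end lies close to the telomere, a region rich in repeated gene families and, in this species, in sugar transporter and other subtelomeric genes. HXT14, 1 of the transporter genes deleted in the null strain, lies on the same chromosome arm as the 8 genes, with only YNL320W measured between it and VNX1. The 8 genes have no common pathway. RPD3 encodes a histone deacetylase that represses transcription, and AAD14 a putative aryl-alcohol dehydrogenase. EGT2 and KRE1 encode cell wall proteins, the first needed for the separation of daughter from mother cells and the second for the assembly of a wall beta-glucan. PFA3, FIG4 and VNX1 act at the vacuole, as a palmitoyltransferase of the fusion factor Vac8, a phosphoinositide phosphatase and an antiporter of monovalent cations and protons. LEM3 encodes the partner subunit of the phospholipid flippases Dnf1 and Dnf2.

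Values are log2 intensities after quantile normalization, so a difference of 1 is a change of 2-fold. The strain labels were checked on HXT1, HXT2, HXT3, HXT4, HXT5 and HXT7. On the 6 null arrays their deposited values lay at most 0.14 above the lowest value of the array, and on the 6 reference arrays at least 3.32 above it. The replicate 2 arrays did not go with their time labels. Across genes, they had mean correlations of 0.721 to 0.942 with replicates 1 and 3 of their own labelled time and of 0.984 to 0.994 with those of the other time. Strains are therefore compared on all 12 arrays, and the pulse on replicates 1 and 3, which leaves 2 arrays per group. The 8 genes were far from the lower limit of the measurement, with each deposited value at least 5.59 above the lowest value of its array.

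All 8 genes had a higher mean in the null strain, with differences of 0.74 to 2.18 and a median of 1.02, where the median over all 5449 genes was -0.01. The 6 null and the 6 reference arrays did not overlap for 7 of the 8 genes, the exception being EGT2. Over all genes, 5.51% had every null array above every reference array and 3.36% had the opposite. Without replicate 2 in any group, the same number, 7 of 8, did not overlap, against 8.33% of all genes with the null arrays higher. Since the genes were chosen for this difference, these values describe them and no p is given for them.

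RPD3 had log2 intensities of 12.87 to 13.13 on the 6 null arrays (median 12.96), against 11.83 to 12.20 on the 6 reference arrays (median 12.02). The null mean was 1.96-fold higher, a log2 difference of 0.97, with SDs of 0.11 in the null and 0.12 in the reference arrays. Each strain thus formed a narrow band, and the lowest null array was 0.67 above the highest reference array.

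LEM3 ran from 12.45 to 12.64 (median 12.52) on the null arrays and from 11.29 to 11.64 (median 11.45) on the reference arrays. Its difference was 1.08, or 2.11-fold, with SDs of 0.06 in the null and 0.12 in the reference arrays. KRE1 lay at 13.85 to 14.01 (median 13.96) on the null arrays and at 12.93 to 13.30 (median 13.11) on the reference arrays. The difference of KRE1 was 0.85, or 1.80-fold, with SDs of 0.05 and 0.16 in the null and the reference arrays. For both genes the gap between the strains exceeded the whole spread within either, with the lowest null array 0.81 above the highest reference array for LEM3 and 0.55 above it for KRE1.

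FIG4 had the widest gap between the strains. It measured 10.81 to 11.15 (median 11.05) in the null strain and 9.20 to 9.58 (median 9.40) in the reference strain. The lowest null array was 1.23 above the highest reference array, and the difference of the means was 1.60, or 3.03-fold. Within each strain the arrays of this phosphatase gene stayed close together, with SDs of 0.14 in the null and 0.20 in the reference arrays.

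PFA3 had 11.38 to 11.80 (median 11.54) on the null arrays and 10.03 to 11.16 (median 10.63) on the reference arrays. AAD14 had 11.02 to 11.59 (median 11.30) on the null arrays and 9.46 to 10.30 (median 10.09) on the reference arrays. The differences of the means were 0.97 for PFA3 and 1.31 for AAD14, and both genes varied more among the reference arrays (SD 0.44 and 0.36) than among the null arrays (SD 0.14 and 0.25). The AAD genes are related copies at several chromosome ends, and the array could read more than 1 of them with the AAD14 probe set.

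VNX1 and EGT2 departed from this pattern, each in its own way. VNX1 lay at 11.90 to 12.80 (median 12.42) on the null arrays and at 8.64 to 11.71 (median 10.22) on the reference arrays. Its reference SD of 1.43, against 0.32 in the null arrays, came from a split, with 3 reference arrays at 8.64, 9.04 and 9.15 and the other 3 at 11.28, 11.57 and 11.71. EGT2 had 11.74 to 13.97 (median 12.96) on the null arrays and 11.96 to 12.38 (median 12.33) on the reference arrays. Here the spread was in the null strain, with an SD of 0.79 against 0.16 in the reference strain, and null replicate 3 at 0 min was below all reference arrays. The difference of 0.74 for EGT2 was thus smaller than the spread among its null arrays.

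**Figure D1:**
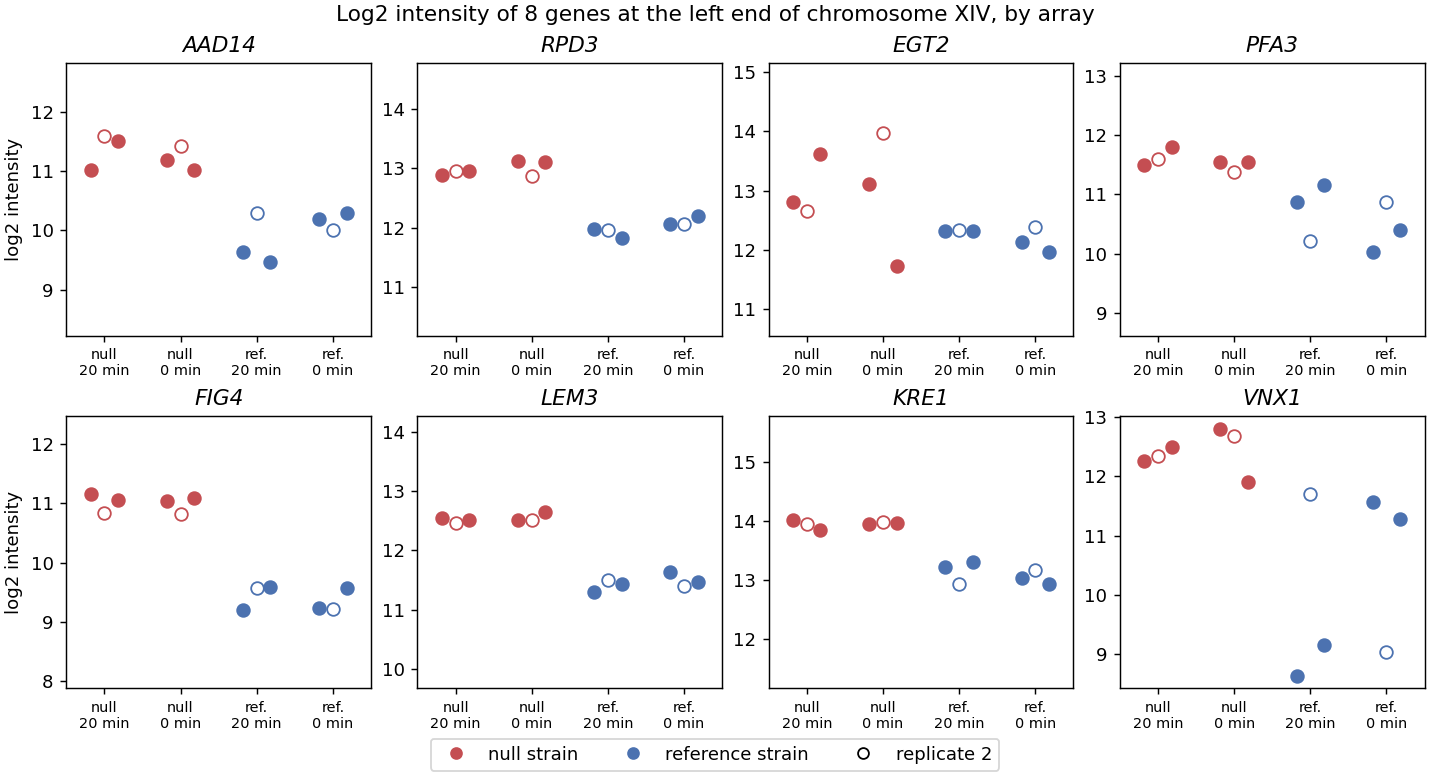
Log2 intensity (vertical axis, quantile-normalized; each panel spans the same number of log2 units around its own midpoint) of each gene on the 12 arrays, grouped on the horizontal axis by strain and labelled time, with replicates 1 to 3 from left to right and replicate 2 as open circles. The null arrays of RPD3, LEM3, KRE1, FIG4, PFA3, AAD14 and VNX1 all lie above the reference arrays, while EGT2 overlaps and VNX1 has a wide reference range of 8.64 to 11.71.

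Null and reference arrays of the same label can be set side by side in 6 pairs. The median difference over the 8 genes was 1.08, 1.01 and 1.22 in replicates 1, 2 and 3 at 20 min, and 1.04, 1.27 and 0.96 in replicates 1, 2 and 3 at 0 min. In 5 of the 6 pairs all 8 genes were higher on the null array, and in replicate 3 at 0 min 7 of 8 were, with EGT2 at -0.23. The numbers are not shown to pair the cultures, so the pairs only order the arrays. No share of all genes higher on the null array was worked out per pair, and the counts describe genes chosen for this direction. Over the 12 arrays the 28 pairs of these genes had Pearson correlations of 0.35 to 0.98 (median 0.80), to which the strain difference they were chosen for contributes.

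Before the pulse, on replicates 1 and 3 at 0 min, the differences lay closest together. VNX1 was 1.91-fold higher in the null strain, KRE1 1.96-fold, LEM3 2.03-fold, RPD3 1.98-fold and AAD14 1.82-fold. EGT2 was lower in this order at 1.30-fold, and PFA3 (2.52-fold) and FIG4 (3.17-fold) were above. The median log2 difference of the 8 genes was 0.98 with an SD between genes of 0.37, where the median over all genes was 0.00. At 20 min the median was similar at 1.09, but the SD between genes was 0.93, with VNX1 11.2-fold and AAD14 3.29-fold higher in the null strain, and PFA3 1.55-fold and KRE1 1.59-fold higher. The range of the log2 differences at 0 min, 0.38 to 1.66, was 0.35 to 1.23 with the values as deposited and 0.46 to 1.34 with arrays centred on their medians.

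The genes that lie among and beside the 8 are outside the chosen set. PEX6, which encodes an ATPase of peroxisome biogenesis and lies next to RPD3, had 11.50 to 12.01 (median 11.87) on the null arrays and 9.77 to 10.78 (median 10.16) on the reference arrays. On the 12 arrays it was higher in the null strain by 1.63 (SE 0.21, limma adjusted p = 0.00462), a call made for 2.17% of all genes (1.38% higher and 0.789% lower). That share depends on the arrays used, and on replicates 1 and 3 alone 3665 of the 5449 genes were called. At 0 min the difference of PEX6 was 1.15 (SE 0.20), which did not pass on 8 arrays (adjusted p = 0.0900). MDJ2, a mitochondrial Hsp40 gene, was dim, with a mean of 5.00, and its differences of 0.62 (SE 0.34) at 0 min and -0.78 (SE 0.34) at 20 min did not pass (limma adjusted p = 0.429 and 0.0847).

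YNL320W, the first measured gene beyond VNX1, averaged 10.78 in the null and 9.56 in the reference strain at 0 min, a difference of 1.23 (SE 0.24, limma adjusted p = 0.114). At 20 min its difference was 0.05 (SE 0.24, adjusted p = 0.871). Next comes HXT14, which was within 0.01 of the lowest value on the null arrays and rose above it by at most 1.12 on the reference arrays as deposited, so no fold is given. The 10 measured genes that follow HXT14 had differences of -0.37 to 0.43 at 0 min, with a median of 0.02, and the lowest adjusted p among them was 0.211, for RFA2. The measured genes from AAD14 to YNL320W thus lay at 0.38 to 1.66, and EGT2 at 0.38 was the only one of them inside the range of those after HXT14. This stretch pools the 8 genes, chosen for being higher in the null strain, with PEX6, MDJ2 and YNL320W. None of these other genes passed at 0 min, so the values do not set how far along the chromosome the difference went. With values as deposited, the 10 genes had -0.67 to 0.36 and YNL320W 0.87, and with centred arrays -0.56 to 0.47 and 0.98. MDJ2, at 0.13 and 0.24, then also lay inside the range.

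At 20 min gene order no longer separated the genes in this way. The 12 measured genes after VNX1 ran from -4.66 for PHA2, a prephenate dehydratase gene, to 2.48 for RFA2, a subunit of the single-strand DNA binding factor, while the 8 genes ran from 0.63 to 3.48. By limma, 75.4% of all genes differed between the strains at 20 min, against 1.28% at 0 min. For the rest of chromosome XIV, 356 genes, the median difference was 0.00 at 0 min and -0.26 at 20 min.

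The same count was made at the other chromosome ends. The 10 outermost measured genes at the left end of chromosome XIV had a median difference of 0.98 at 0 min. The 31 other ends had medians of -0.75 to 1.16, and the highest was the left end of chromosome XV. All 10 genes were higher in the null strain at the left end of XIV, while 6 of 10 were at the left end of XV, where the lowest was -2.01. At the right end of chromosome XIV, which holds HXT17, the median was -0.10. The 90 measured genes of chromosome I had a median of 0.89 at 0 min and 0.29 at 20 min. On all 12 arrays the left end of XIV had a median of 1.02 and the 31 other ends had -1.02 to 1.10, the highest being the right end of II. At 20 min the left end of XIV was at 1.09, with 6 other ends above it, the right ends of II (1.48) and VI (1.34) and the left ends of XI (1.23), XV (1.14), IX (1.13) and IV (1.11). Of the 10 genes at the left end of XIV, 8 were chosen for being higher in the null strain, while the other ends were taken by position alone. The median and the count at this end thus follow in part from that choice. These values are descriptions and no test was made between the ends.

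**Figure D2:**
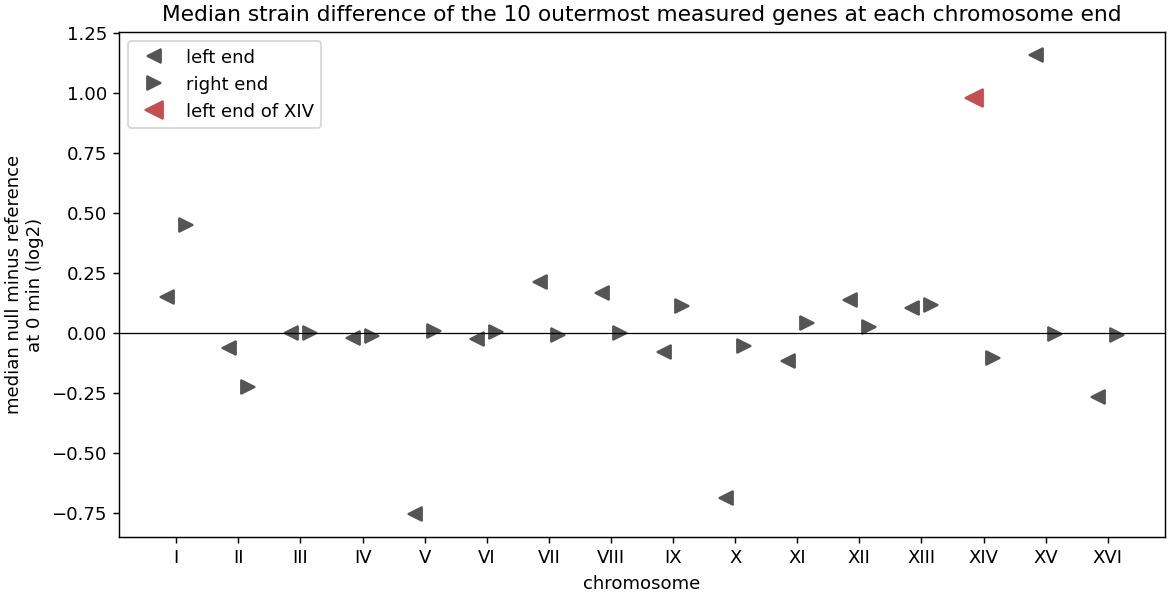
Median log2 difference between the null and the reference strain at 0 min (vertical axis, replicates 1 and 3) of the 10 outermost measured genes at the left and right end of each chromosome (horizontal axis). The left end of XIV is at 0.98 and the left end of XV at 1.16, and the other 30 ends lie between -0.75 and 0.45. Of the 10 genes at the left end of XIV, 8 were chosen for being higher in the null strain.

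The 5 other genes whose values over the 12 arrays were most like the mean of the 8 were PEX6, YOL163W, TFC3, SAW1 and OPY2. Their Pearson correlations with it were 0.981, 0.979, 0.967, 0.966 and 0.960, given without a test since strain and labelled time are shared by all of them. YOL163W lies at the left end of chromosome XV and had 8.95 to 9.43 in the null strain, against 6.38 to 7.67 in the reference strain. TFC3, a subunit of the polymerase III factor TFIIIC, and SAW1, a DNA repair factor, lie on chromosome I. OPY2, a membrane anchor of the osmosensing pathway, lies on chromosome XVI and was higher in the null strain by 1.40. No p is given for it, because it was picked for being like the 8 on these same arrays.

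The glucose pulse is a comparison that the choice of the genes did not use. In the null strain 0 of the 8 genes passed the limma threshold, and 0 had an unadjusted p under 0.05, where 27.5% of all genes changed (12.9% up and 14.7% down). In the reference strain 4 of 8 changed, 2 up and 2 down, where 72.3% of all genes did (39.3% up and 33% down). A share of 4 in 8 is below that background, and no more is read from it. The difference between the responses passed for 2 of 8, both higher in the null strain, against 66.3% of all genes (32.4% higher and 33.9% lower). The medians of the 8 genes were 0.03 in the null and -0.10 in the reference strain, and those of all genes 0.04 and 0.13.

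VNX1 had the largest response of the 8. In the reference strain it had 8.64 and 9.15 at 20 min, against 11.57 and 11.28 at 0 min. It thus fell by 2.53 (SE 0.34, limma adjusted p = 0.00128). In the null strain it had 12.25 and 12.49 at 20 min, against 12.80 and 11.90 at 0 min, a change of 0.02 (SE 0.34, adjusted p = 0.992). The difference between the responses, null minus reference, was 2.55 (SE 0.48, limma adjusted p = 0.00571). The reference arrays of replicate 2 had 11.71 under the 20 min label and 9.04 under the 0 min label, the reverse of the other replicates. With all 12 arrays under their labels the change in the reference strain was -0.80 and did not pass (adjusted p = 0.757), nor did the difference of 0.69 (adjusted p = 0.877).

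AAD14 fell in the reference strain by 0.69 (SE 0.18, limma adjusted p = 0.0175), with 9.63 and 9.46 at 20 min, against 10.18 and 10.29 at 0 min. That call was lost without reference 0 min replicate 1 or 3 or 20 min replicate 3 (adjusted p = 0.0505, 0.0772 and 0.0867). The change was -1.55 as deposited and -1.06 with centred arrays, and it passed under both scalings (adjusted p = 0.000312 and 0.00244). Its null arrays overlapped, with 11.02 and 11.51 at 20 min, against 11.18 and 11.02 at 0 min (change 0.16, SE 0.18, adjusted p = 0.563). The responses differed by 0.85 (SE 0.26, limma adjusted p = 0.0313), a call lost when any of 6 of the 8 arrays was left out (adjusted p up to 0.0955), namely any of the 4 reference arrays or either null array at 0 min. It was also lost with the replicate block (adjusted p = 0.0525). As deposited the difference was 1.59, and with centred arrays 1.34.

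PFA3 rose in the reference strain, with 10.88 and 11.16 at 20 min, against 10.03 and 10.39 at 0 min, a change of 0.81 (SE 0.18, limma adjusted p = 0.00979). Its null values were 11.49 and 11.80 at 20 min, against 11.54 and 11.54 at 0 min (change 0.10, SE 0.18, adjusted p = 0.723). The difference of -0.70 (SE 0.26) did not pass (adjusted p = 0.0579), and with values as deposited the reference change was 0.29 (adjusted p = 0.186). Without reference 20 min replicate 3 it was 0.67 (adjusted p = 0.0550).

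KRE1 rose by 0.28 (SE 0.10, limma adjusted p = 0.0430) in the reference strain, where it had 13.22 and 13.30 at 20 min, against 13.03 and 12.94 at 0 min. Its arrays of the 2 times were apart by more than their own spread, but the call was near the threshold and was lost in 6 of the 8 fits that left out 1 array. These were the fits without any of the 4 reference arrays or without either null array at 0 min, with adjusted p up to 0.170. The call was also lost with values as deposited (0.30, adjusted p = 0.0994), without dim genes (adjusted p = 0.126), with a trended and robust variance (adjusted p = 0.0525) and with the replicate block (adjusted p = 0.0672), while with centred arrays the change was 0.79 (adjusted p = 0.00128). Its null values were 14.01 and 13.85 at 20 min, against 13.95 and 13.96 at 0 min (change -0.02, SE 0.10, adjusted p = 0.892).

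The other 4 genes did not pass in either strain. RPD3 was at -0.19 (SE 0.10) in the null and -0.22 (SE 0.10) in the reference strain, and LEM3 at -0.05 (SE 0.11) and -0.19 (SE 0.11). EGT2 was at 0.79 (SE 0.49) in the null and 0.28 (SE 0.49) in the reference strain. Its null value was 0.10 without 0 min replicate 3 and 1.48 without 0 min replicate 1. FIG4 was at 0.05 (SE 0.17) and -0.01 (SE 0.17), and its reference value turned on the scaling. As deposited, its change in the reference strain was -1.15 (limma adjusted p = 0.00230), and with centred arrays -0.65 (adjusted p = 0.0205). The difference between the strains' responses was then 1.07 (adjusted p = 0.0167) and 0.82 (adjusted p = 0.0357), against 0.05 after quantile normalization. LEM3 passed as deposited, at -0.45 (adjusted p = 0.0225). The median change of all genes in the reference strain was 0.13 after quantile normalization, -0.38 as deposited and 0.11 with centred arrays. FIG4 lay below this median under each scaling, by the smallest margin after quantile normalization.

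**Figure D3:**
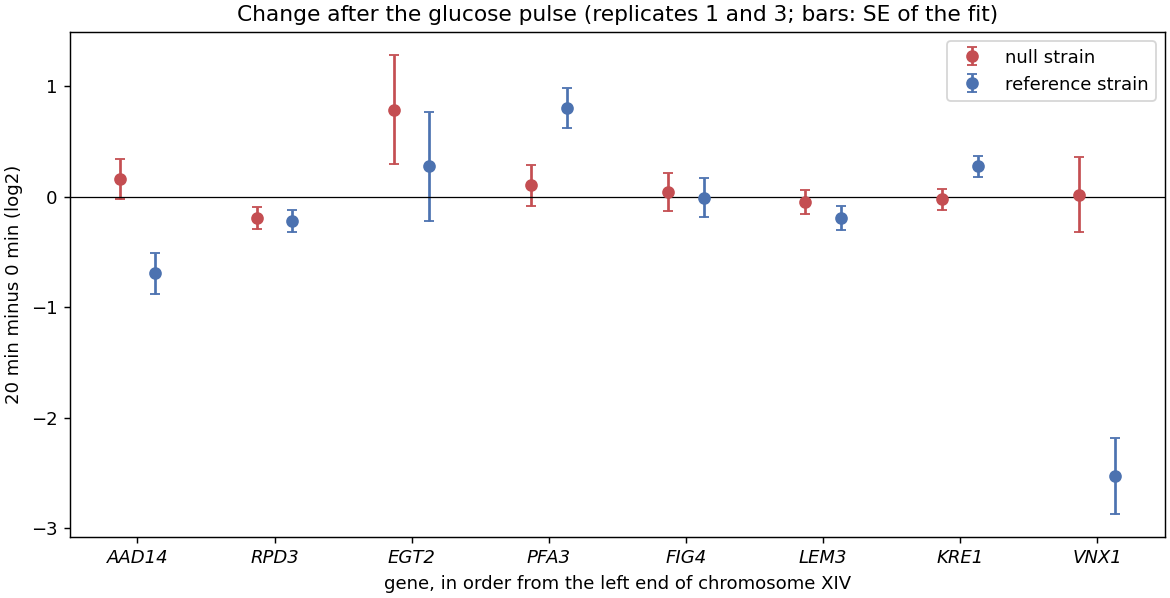
Change in log2 intensity between 20 and 0 min (vertical axis) in the null and the reference strain for each of the 8 genes in chromosome order (horizontal axis), with the SE of the fit to replicates 1 and 3 as bars. VNX1 at -2.53 and AAD14 at -0.69 fell and PFA3 at 0.81 and KRE1 at 0.28 rose in the reference strain, and no gene passed the threshold in the null strain.

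Of the 12 measured genes after VNX1, 2 rose, 4 fell and 6 did not pass in the null strain by limma, where 27.5% of all genes changed. PEX6 and MDJ2, which lie among the 8 genes, did not pass there. YNL320W fell by 1.92 (SE 0.24, adjusted p = 0.00587) in the null strain and by 0.75 (SE 0.24, adjusted p = 0.0337) in the reference strain. PEX6 was at 0.14 in the null strain and fell by 0.71 in the reference strain (SE 0.20, adjusted p = 0.0222). MDJ2, which was dim, was at 0.16 in the null strain and rose by 1.56 in the reference strain (limma adjusted p = 0.00826). The difference between the responses, null minus reference, was 0.85 for PEX6 and -1.40 for MDJ2 (limma adjusted p = 0.0435 and 0.0459). Of all genes 66.3% passed for this difference.

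Genes that work with the 8 were taken from 9 lists written from general knowledge, with 94 different measured genes. Between the strains, on 12 arrays, 2 of the 94 passed by limma, both higher in the null strain, and 39 had an unadjusted p under 0.05. Of all 5449 genes 2.17% passed and 2464 had an unadjusted p under 0.05, so both counts are near the background. With values as deposited 2 passed, and with centred arrays 1. Their median difference was 0.08, where that of the 8 was 1.02. DEP1, a subunit of the Rpd3 deacetylase complex whose gene lies on chromosome I, was higher by 0.70 (SE 0.14, adjusted p = 0.0430) and at 0 min by 1.09 (SE 0.11, adjusted p = 0.0170). AAD3, a relative of AAD14, was higher by 3.24 (SE 0.60, adjusted p = 0.0278), but it was at the lowest value on the reference arrays of replicates 1 and 3 at 20 min, so the size is not well determined.

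Of 13 genes of Rpd3 complexes 7 rose, 5 fell and 1 did not pass in the reference strain (median 0.28), where 72.3% of all genes changed. SDS3, a subunit of an Rpd3 complex, rose by 2.06 (SE 0.19, limma adjusted p = 0.000275). RCO1, a subunit of the small complex, rose by 1.61 (SE 0.42, adjusted p = 0.0170), and UME6, the DNA-binding factor that recruits Rpd3, by 1.56 (SE 0.14, adjusted p = 0.000300). Of these genes 2 fell in the null strain, UME6 (-0.88) and SIN3, the scaffold subunit (-0.46), and 11 did not pass. With values as deposited, 1 rose and 5 fell in the reference strain.

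Of 13 genes repressed through Ume6 and Rpd3, 7 rose in the null strain, none fell and 6 did not pass (median 1.15). Of all genes 27.5% changed there (12.9% up and 14.7% down). MEI5, among those that did not pass, was at the lowest value on all 12 arrays. HOP1, SPO11 and SPO13 were dim, with means of 4.54, 5.00 and 2.98. IME2, a kinase of meiotic entry, rose by 1.92 (SE 0.29, limma adjusted p = 0.00913), SPO16, a gene of meiotic recombination, by 1.41 (SE 0.28, adjusted p = 0.0190), and REC8, the meiotic cohesin, by 1.39 (SE 0.29, adjusted p = 0.0236). In the reference strain 5 rose and 3 fell, where 72.3% of all genes changed. The largest changes there were those of RIM4, a translational regulator of meiosis (-4.25), SPO11, the meiotic break enzyme (2.33), and INO1, the inositol phosphate synthase (-2.27). The rise of the dim gene SPO11 was not called with values as deposited. Both balances depended on the scaling. In the null strain 1 rose and none fell as deposited, and 4 rose and none fell with centred arrays. In the reference strain none rose and 6 fell as deposited, and 2 rose and 5 fell with centred arrays.

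Partners of the vacuolar and membrane genes come next. Of the 10 genes on the phosphoinositide list around FIG4, not all of them enzymes, 7 fell and none rose in the reference strain. The other 3 did not pass (median -1.03), where 72.3% of all genes changed. As deposited 8 fell and with centred arrays 7, with medians of -2.50 and -2.00. VPS15, the regulatory subunit of the Vps34 kinase, fell by 4.03 (SE 0.29, limma adjusted p = 0.000117) and FAB1, the kinase that works with Fig4, fell by 2.35 (SE 0.17, adjusted p = 0.000114). Of these 10 genes 1 rose and 2 fell in the null strain. The 8 genes of palmitoyltransferases and Vac8 had 2 that rose, 3 that fell, PFA4 (-1.67) among them, and 3 without a call in the reference strain. By limma 0 of the 8 passed in the null strain (0 at an unadjusted p under 0.05).

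Among the 10 measured cation transporters related to VNX1, 1 rose, 3 fell and 6 did not pass in the reference strain. ENA5, among those that did not pass, was at the lowest value in all 4 groups. PMC1, the vacuolar calcium pump, fell by 3.15 (SE 0.15, limma adjusted p = 3.22e-05) and YVC1, a vacuolar cation channel, fell by 3.09 (SE 0.31, adjusted p = 0.000415). By limma 0 of 10 passed in the null strain and 2 had an unadjusted p under 0.05. With centred arrays 4 rose and 4 fell in the reference strain. Of the 9 flippase genes and regulators around LEM3, 1 rose and 3 fell in the reference strain, led by KIN82, a flippase kinase (-3.00), and 1 rose and 2 fell in the null strain.

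These counts moved with the scaling. In the reference strain, as deposited, 1 rose and 5 fell of the palmitoyltransferase list, and none rose and 5 fell of the flippase list.

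In the remaining lists, the 12 beta-glucan genes around KRE1 had 4 that rose and 6 that fell in the reference strain, and 1 that rose and 3 that fell in the null strain. KNH1, which acts in wall glucan synthesis, fell by 3.11 in the reference strain (SE 0.20, limma adjusted p = 8.46e-05). The 13 daughter-cell separation genes around EGT2 had 3 up and 2 down in the reference strain and 3 up and none down in the null strain, which with centred arrays were 6 up and 2 down, and 4 up and none down. DSE1, expressed in daughter cells, rose by 2.29 (SE 0.67, limma adjusted p = 0.0250) in the reference strain. PCL9, a cyclin of the Pho85 kinase, rose by 1.80 (SE 0.32, adjusted p = 0.0146) in the null strain. The 7 measured relatives of AAD14 had 1 up and 5 down in the reference strain, with GCY1, a glycerol dehydrogenase, at -3.00, while 0 passed by limma in the null strain (1 at an unadjusted p under 0.05). Against the 27.5% and 72.3% of all genes called in the null and the reference strain, these are counts of short lists and single out none of them.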

How the data were processed

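The authors deposited log2 intensities of 10928 probe sets on 12 arrays. Per the labels, RNeasy total RNA was DNase-treated and labelled as biotinylated cRNA. How the authors computed these log2 values was not given in the sources used here. Probe sets were matched by gene identifier to the R64 gene table, leaving 5498 probe sets. The brightest one on average stood for each of 5449 genes. Of the probe table's entries, 7244 had 1 gene symbol and 1 had several, and 3683 probe sets were not listed. Array medians ran from 10.34 to 10.90, so values were quantile-normalized. Models of 4 group means were fitted with limma 3.58.1 in R 4.3.3 and adjusted by Benjamini-Hochberg over all genes, with calls at 0.05. Residual degrees of freedom were 8 with 12 arrays and 4 with 8. The fits were tested on simulated data. The number of arrays limits the precision.

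The 8 genes and the lists were chosen with earlier results of these data known. The partner genes named are up to 3 per list and comparison, from those with the largest change among the genes called. In the lists, FPK2 was read as KIN82 and CRF1 as YNR048W, its synonym. Alternatives covered scaling, probe sets, dim genes (mean under 6), a replicate block, weights for arrays, the variance model and left-out arrays. The comparisons at single times and the counts without replicate 2 were added after the data were seen. The labels do not say that numbers mark shared cultures, and the numbers were not taken as pairs. The deviations of same-numbered arrays (correlations of -0.984 to -0.03) cannot settle this, because the replicate 2 arrays lay with the other time. Matplotlib 3.10.9 (Python 3.11.15) drew the figures.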

Additional observations from a re-analysis of the deposited data

Results flagged for a closer look

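For 2 of the 8 genes the response to the pulse differed between the strains by the test of the difference itself, where 66.3% of all genes passed it. Neither gene passed with all 12 arrays under their labels. VNX1 had a difference of 2.55 (null minus reference, limma adjusted p = 0.00571), which passed in all 8 fits that left out 1 array, at 2.10 to 3.00. AAD14 had a difference of 0.85 (limma adjusted p = 0.0313), which was lost in 6 of these 8 fits (adjusted p up to 0.0955) and with the replicate block (0.0525).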

How the results depend on the processing

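The median strain difference of the 8 genes, 1.02, moved by less than the SD of 0.12 between the 6 array pairs under every alternative run, with 1.02 to 1.08 when 1 array was left out, 1.00 on the replicate 2 arrays alone, and 0.98 and 1.09 at 0 and 20 min on replicates 1 and 3. It was 1.02 with the replicate block. The count of 7 genes with no overlap, among genes chosen for their strain difference, was 7 under all 4 alternatives run. The share of all genes with every null array higher was 5.51% in the main setting. It was 8.33% without replicate 2, 4.06% as deposited, 6.59% with centred arrays and 5.49% with the mean of all probe sets. The number of all genes called in this comparison was 118 (75 higher, 43 lower in the null strain), 34 and 50 as deposited, 44 and 36 with centred arrays, 38 in all with the replicate block, 3665 with replicates 1 and 3, 4110 with array weights, and 47 to 3051 with 1 array left out, the highest without reference 20 min replicate 2.

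For the pulse, the number of the 8 genes called was 0 in the null strain, and 1 (RPD3, -0.21, limma adjusted p = 0.0444) with array weights. In the reference strain it was 4, and 0 with all 12 arrays under the labels. It ranged from 1 to 4 when 1 array was left out, with 2 without either 0 min reference array and 1 without 20 min replicate 3. For the difference it was 2, 0 with all 12 arrays under the labels, 4 with centred arrays, 4 with array weights, and 1 to 2 with 1 array left out, 1 without reference 0 min replicate 1, either 20 min reference array or either 0 min null array. With the replicate block KRE1 in the reference strain (adjusted p = 0.0672) and the AAD14 difference (0.0525) were lost and the PFA3 difference (-0.70, adjusted p = 0.0247) was called; the number of all genes called stayed within 1.5 times. No called change reversed. All genes called in the reference strain split into 2140 up and 1800 down, and 1419 and 2491 as deposited. In the null strain they split into 702 and 799, and 250 and 1183 as deposited. Their number, 1501, was 750 to 1338 with 1 array left out, with the lowest without null 0 min replicate 3 (873), 20 min replicate 1 (960) or 20 min replicate 3 (750), and 0 with all 12 arrays under the labels, while the reference strain's 3940 was 0 there too.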
